A study of Homo sapiens with 31 samples.

Results

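The binding sites described here are the ChIP-seq peaks of EVI1 and of CTBP2 in unmodified MUTZ3 cells that lie far from the start of any protein-coding gene. A peak was taken as far when its summit, the base of highest signal, lay over 100 kb from the closest protein-coding transcription start site (TSS) in the GENCODE annotation of hg19, on chromosomes 1 to 22. By this rule 3427 of 21090 EVI1 peaks were far, which is 16.2% (95% Wilson interval 15.8 to 16.8), and 3007 of 16526 CTBP2 peaks, which is 18.2% (17.6 to 18.8). The 6434 far peaks stand among the 533140 peaks of the 13 deposited lists of the series. The CTBP2 peak just inside the limit lay 100044 bp from the TSS of CYLD with a fold enrichment of 4.18, and the one just outside lay 99999 bp from that of TMEM17 with 4.50. The EVI1 peak just outside lay 99958 bp from CDH26 with 8.56.

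MUTZ3 is a line of human acute myelomonocytic leukemia cells in which EVI1 is switched on by a rearrangement of chromosome 3. The unmodified cells were untreated, with 1 library for EVI1 (double crosslink with DSG) and 1 for CTBP2 (single crosslink). The far peaks were followed in MUTZ3 cells with an inducible construct (pCW-4xPLDLS) at 72 hours, untreated or with doxycycline (dox), with 2 libraries each for CTBP2 and EVI1. 4xPLDLS is a peptide that carries repeats of the EVI1 motif through which CTBP2 is bound. They were also followed in 2 CTBP2 libraries of MUTZ3 cells with retroviral 4xPLASS, in which that motif is mutated, and in 1 CTBP2 library of untreated MOLM1, a chronic myeloid leukemia blast crisis cell line that expresses EVI1 and here is a clone with a dox-inducible short hairpin against EVI1. The labels give the DSG double crosslink for all 11 of these, but the study's own list of libraries gives a single crosslink for those of 4xPLASS and MOLM1 cells, so their protocol is uncertain. Of the 31 samples, 13 had a list that was analysed here. Each condition is 1 cell line, and the lists hold no expression values against which its cell type could be checked.

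EVI1, encoded by MECOM, is a zinc finger transcription factor of blood stem cells whose activation marks an aggressive form of myeloid leukemia. CTBP2 is a corepressor that does not read DNA itself but is brought to chromatin by factors with a PLDLS-like motif, and it carries histone deacetylases and other repressors with it. Sites far from any start are commonly enhancers, which act on genes over long distances and are shaped in blood cells by ETS, RUNX and GATA factors, so the nearest gene need not be the regulated one.

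The sequence at the summits shows what such sites look like. The first 5 windows below are from 5 of the 6 far sites called for both proteins that had the best mean rank of fold enrichment. ZMIZ1 had the second strongest far EVI1 peak, and KLF6, RHOU and CNR1 had CTBP2 in both untreated inducible libraries and in neither dox library. Each is named by its nearest coding TSS and is the summit base of the hg19 plus strand with 50 bp on each side. Capitals mark AGGAAG and CGGAAG (ETS cores), TGTGGT (the RUNX core), AGATAA (the core of GATA factors, which is also part of the longer EVI1 motif) and GATGAG (part of the motif of the second EVI1 zinc finger domain), on either strand.
HS6ST1, CTBP2 summit (chr2:129492317-129492417): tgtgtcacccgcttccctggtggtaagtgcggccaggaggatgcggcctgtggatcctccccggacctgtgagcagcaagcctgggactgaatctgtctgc
RPLP1, CTBP2 summit (chr15:70051481-70051581): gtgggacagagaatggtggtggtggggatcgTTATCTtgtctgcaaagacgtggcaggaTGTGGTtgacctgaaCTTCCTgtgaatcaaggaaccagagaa
RFLNB, CTBP2 summit (chr17:437459-437559): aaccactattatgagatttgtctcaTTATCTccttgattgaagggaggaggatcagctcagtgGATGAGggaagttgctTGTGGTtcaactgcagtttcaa
ANLN, CTBP2 summit (chr7:36323448-36323548): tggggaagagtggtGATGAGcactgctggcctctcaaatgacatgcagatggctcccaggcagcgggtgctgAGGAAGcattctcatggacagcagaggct
NTPCR, CTBP2 summit (chr1:233248831-233248931): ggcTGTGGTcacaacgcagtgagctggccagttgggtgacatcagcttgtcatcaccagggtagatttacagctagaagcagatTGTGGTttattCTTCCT
ZMIZ1, EVI1 summit (chr10:80713053-80713153): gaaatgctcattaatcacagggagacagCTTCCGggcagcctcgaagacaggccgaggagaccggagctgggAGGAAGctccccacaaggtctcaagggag
KLF6, CTBP2 summit (chr10:4102095-4102195): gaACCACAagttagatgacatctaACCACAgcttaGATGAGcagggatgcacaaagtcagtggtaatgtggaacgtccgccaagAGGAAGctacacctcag
RHOU, CTBP2 summit (chr1:229127097-229127197): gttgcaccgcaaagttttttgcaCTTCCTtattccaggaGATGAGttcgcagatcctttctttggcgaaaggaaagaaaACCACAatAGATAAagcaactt
CNR1, CTBP2 summit (chr6:89258962-89259062): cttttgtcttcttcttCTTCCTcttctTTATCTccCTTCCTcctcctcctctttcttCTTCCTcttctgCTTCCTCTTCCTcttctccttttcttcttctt
The windows differed widely. RPLP1 held an ETS, a RUNX and a GATA core, RFLNB a GATA, a RUNX and a GATGAG match, and HS6ST1 none of these words although it was in every list. The CNR1 window was a pyrimidine-rich stretch in which CTTCCT, the reverse complement of AGGAAG, occurred 5 times.

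Far peaks were sparse for the sequence they are drawn from. Positions over 100 kb from a coding TSS make up 46.2% of the 2685 Mb of sequenced chromosomes 1 to 22, and they held 2.77 EVI1 and 2.43 CTBP2 peaks per Mb, against 12.2 and 9.35 in the rest. The density dropped with distance for both proteins, and most far peaks were in the nearer part of the range. EVI1 peaks numbered 4.47 per Mb at 100 to 200 kb, 2.62 at 200 to 500 kb, 1.06 at 500 kb to 1 Mb and 0.516 beyond 1 Mb. CTBP2 peaks numbered 3.86, 2.25, 1.04 and 0.640 per Mb in the same classes. Beyond 1 Mb there were 54 EVI1 and 67 CTBP2 peaks, and the median distance of a far peak was 185240 bp for EVI1 and 189075 bp for CTBP2.

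**Figure D1:**
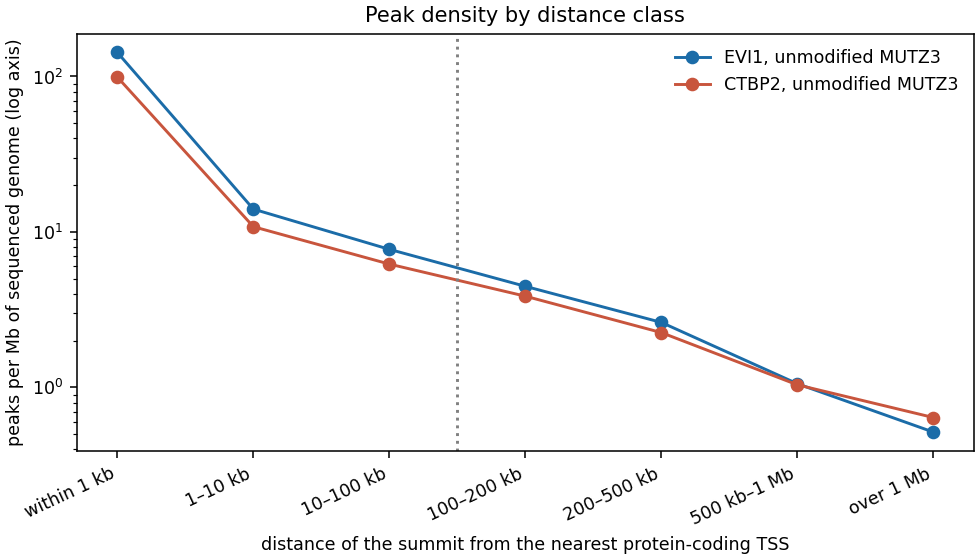
Peaks per Mb of sequenced genome (log axis) by distance of the summit from the nearest coding TSS, for the EVI1 and the CTBP2 list of unmodified MUTZ3 cells. The density is lower in each class than in the one before it, from 143 and 99.0 peaks per Mb within 1 kb to 0.516 and 0.640 beyond 1 Mb.

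Far from a TSS did not mean outside genes. Of the far peaks, 42.6% of EVI1 (40.9 to 44.2) and 45.4% of CTBP2 (43.7 to 47.2) lay inside the body of a coding gene, against 59.1% and 60.8% of the other peaks, and nearly all of these were intronic, since 2.33% and 2.76% of far peaks were in an exon of a coding gene. A further 24.2% and 24.3% were in a long non-coding RNA gene alone, and 33.3% and 30.3% were outside both. Annotated starts other than the gene's own were often closer, as 30.99% of far EVI1 peaks and 31.8% of far CTBP2 peaks had another start of a coding transcript within 100 kb, though within 1 kb it was 2.89% and 3.72%. A long non-coding TSS was within 100 kb of 67.8% and 65.5%. The label therefore holds for the main start of coding genes and not for genes as such. Merged over both lists the far peaks formed 4777 sites, of which 1599 (33.5%) were in both lists, 1789 in the EVI1 list only and 1389 in the CTBP2 list only.

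Although sparse, far peaks were on average somewhat stronger than the others. Fold enrichment compares the summit signal with the background around it, and peaks were ranked and grouped by it only within a list. Where values of a single site are given from several lists below, they are a description. The median fold enrichment was 6.22 at far EVI1 peaks and 5.75 at the others, and 5.68 at far CTBP2 peaks and 5.18 at the others. Far peaks made up 24 of the 100 strongest EVI1 peaks and 33 of the 100 strongest CTBP2 peaks, with 218 and 260 of the strongest 1000. At a fold enrichment of at least 10 they were 666 of 3189 EVI1 peaks (20.9%) and 363 of 1393 CTBP2 peaks (26.1%). These shares lie above the 16.2% and 18.2% of all peaks that were far.

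The strongest far peak of both lists was the same site, 281 kb upstream of KCNU1, which encodes a potassium channel of sperm (chr8:36360263-36361123 in the EVI1 list). It had a fold enrichment of 53.8 for EVI1, rank 4 of the list, and 42.8 for CTBP2, rank 6, and was called in all 12 other lists. The second EVI1 far peak (chr10:80712747-80713531) lay 116 kb upstream of ZMIZ1, a PIAS-like coactivator gene, with a fold enrichment of 51.9. The third (chr15:70051359-70051729) was 306 kb beyond the TSS of RPLP1, a ribosomal protein gene, with 46.9. Next came a peak in an intron of PCNX2 with nearest TSS NTPCR, a nucleotide phosphatase gene (chr1:233248588-233249529, 45.5), and a peak 416 kb upstream of HS6ST1, a heparan sulfate sulfotransferase gene (chr2:129492082-129492871, 44.5). Each of these 5 was called in all 12 other lists. The next strongest, 177 kb upstream of the homeobox gene IRX6 (chr16:55180857-55181236), had a fold enrichment of 44.4 in unmodified cells but 10.1 and 11.7 in the untreated and 10.99 and 10.7 in the dox EVI1 libraries of the inducible cells, and it was not called in MOLM1. For CTBP2 the peaks after KCNU1 were in introns of ARHGEF3 (nearest TSS SPATA12, 37.7), 220 kb upstream of the zinc finger gene ZFP64 (32.9), in VPS53 (nearest TSS RFLNB, 32.4) and in NEK1 (nearest TSS SH3RF1, 32.1). The ZFP64 site (chr20:51039961-51041391) was the one of these without an EVI1 peak in unmodified cells. EVI1 was called there in all 4 inducible EVI1 libraries, with fold enrichments of 5.17, 8.75, 6.37 and 4.98. The median far peak of these lists had between 5.14 and 6.11. CTBP2 at the ZFP64 site reached 60.8 in MOLM1, rank 6 of that list.

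Far EVI1 peaks had a CTBP2 peak somewhat more often than the other EVI1 peaks, and far CTBP2 peaks had an EVI1 peak at a similar rate to the others. Of the far EVI1 peaks, 1640 (47.9%, 46.2 to 49.5) overlapped a CTBP2 peak by at least 1 bp, beside 43.1% of all EVI1 peaks of chromosomes 1 to 22 and 42.2% of the other peaks. The difference of 5.63 percentage points (95% interval 3.80 to 7.45) was present within each of 5 equal groups of fold enrichment and 5 equal groups of base composition. Of the far CTBP2 peaks, 1618 (53.8%, 52.0 to 55.6) overlapped an EVI1 peak, beside 54.7% of all CTBP2 peaks. Their difference from the other peaks was -1.05 points (-3.02 to 0.92), and its sign depended on what was held equal, since it was negative in 4 of 5 groups of fold enrichment and positive in 5 of 5 groups of base composition. With 1 library per protein there is no replicate error, and intervals of shares cover counting error only, with those of differences from the normal approximation.

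Strength separated shared from unshared far peaks far more than distance did. In the strongest of 5 groups 78.2% of far EVI1 peaks had a CTBP2 peak, against 49.5%, 35.5%, 31.6% and 32.2% in the next groups. For far CTBP2 peaks the shares were 79.7%, 51.1%, 44.2%, 37.2% and 42.5%. Across distance classes the EVI1 share was 47.5% at 100 to 200 kb, 47.8% at 200 to 500 kb, 52.0% at 500 kb to 1 Mb and 40.7% (22 of 54, 28.7 to 54.0) beyond 1 Mb. The CTBP2 shares were 54.3%, 54.7%, 52.4% and 31.3% (21 of 67, 21.5 to 43.2), so that the farthest CTBP2 peaks had EVI1 least often, with an interval below the shares of the nearer classes. Where a far site was shared, both summits lay close together, with a median of 36 bp from EVI1 to CTBP2 summit over 1640 peaks and 63.3% within 50 bp, against 42 bp and 56.5% at the other shared EVI1 peaks. The ranks of both fold enrichments at these far peaks had a Spearman rank correlation of 0.35, given as a description over peaks of 1 library each.

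**Figure D2:**
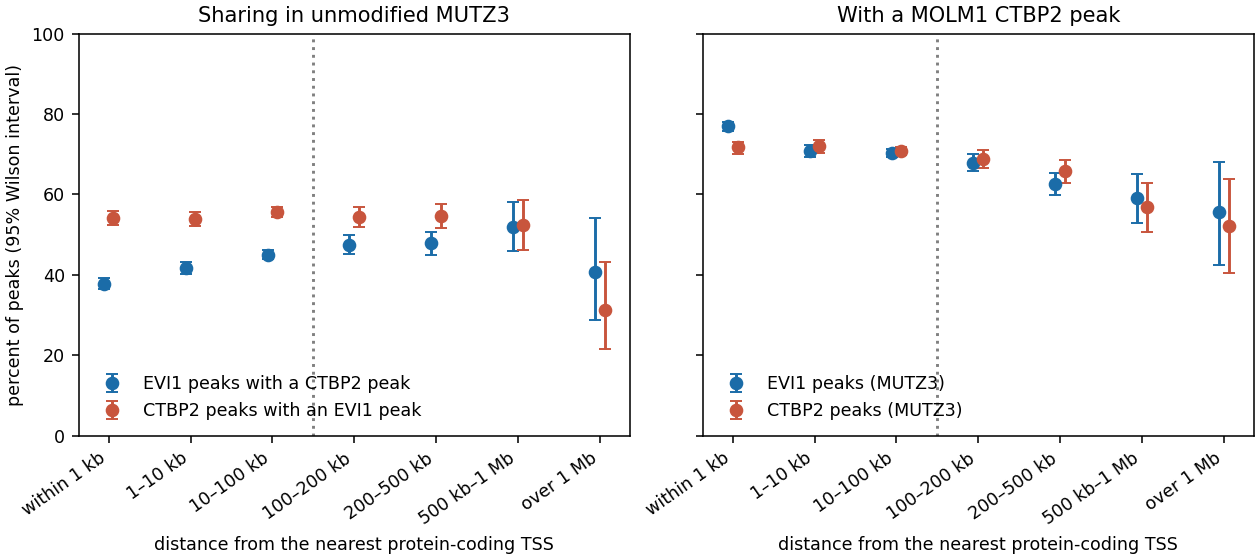
Share of EVI1 peaks with a CTBP2 peak, of CTBP2 peaks with an EVI1 peak, and of each with a MOLM1 CTBP2 peak, by distance of the summit from the nearest coding TSS, with 95% Wilson intervals as bars. Sharing is between 47.5% and 54.7% from 100 kb to 1 Mb and 40.7% and 31.3% beyond 1 Mb, while the MOLM1 share of CTBP2 peaks goes from 68.8% at 100 to 200 kb to 52.2% beyond 1 Mb.

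The base composition of far sites differed from that of the other peaks. The 50 bp to each side of the summit had a median GC content of 50.5% at far EVI1 and 48.5% at far CTBP2 peaks, against 56.4% and 55.4% at the others, and a mean of 1.86 and 1.67 CpG against 4.24 and 3.82. Part of this contrast came from peaks at starts, since 23.8% of all EVI1 and 21.1% of all CTBP2 peaks lay within 1 kb of a TSS. Without these, the others had median GC contents of 54.5% and 52.5% and means of 2.78 and 2.52 CpG. In the 1001 bp around the summit the medians were 45.5% and 44.1% against 53.7% and 52.4%. With each list divided into 5 equal groups by this GC content, 43.8% of far EVI1 and 42.4% of far CTBP2 peaks fell in the lowest group, compared with 15.4% and 15.0% of the other peaks. Values within groups of equal GC are therefore given beside the comparisons below.

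ETS, RUNX and GATA words were frequent at far summits. AGGAAG was in 46.7% of far CTBP2 windows, the summit and 50 bp on each side, and 40.01% of far EVI1 windows, compared with 11.4% and 11.1% of windows of the same length 1 kb to each side. TGTGGT was in 19.3% and 20.5%, against 6.93% and 6.64% beside the summits, and AGATAA in 10.5% and 10.7%, against 6.95% and 6.73%. GATGAG was in 9.25% of far CTBP2 and 11.3% of far EVI1 windows, against 5.22% and 5.12%. The longer EVI1 word GACAAGATA was rare, in 16 far CTBP2 and 24 far EVI1 windows (0.532% and 0.700%), against 0.0499% and 0% beside them. CAGGTG, an E-box, was no more common at far summits (7.35% and 6.59%) than beside them (9.06% in both). All words were searched on both strands, and the shares over all peaks of the lists were, for CTBP2 and EVI1, 39.0% and 34.3% for AGGAAG, 14.4% and 14.4% for TGTGGT, 7.63% and 7.46% for AGATAA, 8.87% and 9.49% for GATGAG, 7.36% and 9.69% for CGGAAG, 9.94% and 7.89% for CAGGTG and 0.303% and 0.379% for GACAAGATA.

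Against the other peaks of their own list, far windows held AGGAAG more often by 9.38 (CTBP2) and 6.86 (EVI1) percentage points and TGTGGT by 6.03 and 7.24. Within groups of equal GC the differences were 2.25 and 2.65 points for AGGAAG and 1.06 and 1.92 for TGTGGT. The excess of AGATAA, 3.48 and 3.84 points, was -0.287 and 0.591 within GC groups, and that of GATGAG, 0.457 and 2.11, was -0.352 and 1.28, so for CTBP2 neither word was more frequent at far peaks of equal GC. The ETS word with a CpG, CGGAAG, went the other way, with 4.36% and 4.87% of far windows against 8.03% and 10.6% of the others. Its differences of -3.67 and -5.75 points were -0.895 and -2.10 within GC groups. Windows 1 kb to each side of far summits held CGGAAG less often, in 1.13% and 1.31%. In all these comparisons the others include peaks within 1 kb of a TSS. Without those, the other windows held AGGAAG in 42.3% and 37.5% and TGTGGT in 16.1% and 16.5%. AGATAA was then in 8.46% and 8.24% and CGGAAG in 6.14% and 7.31%. The stronger far peaks held more of these words. From the strongest to the weakest group of far CTBP2 peaks, AGGAAG was in 54.3% and 39.3%, TGTGGT in 23.9% and 14.5%, and AGATAA in 13.9% and 5.98%. Far EVI1 peaks gave 45.4% and 34.0%, 27.5% and 17.6%, and 16.2% and 8.70%. A match is only a run of letters and was not tested as a bound site.

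In the inducible cells far peaks were found again less often than the other peaks, before any treatment. CTBP2 in untreated replicates 1 and 2 was called at 60.3% and 82.7% of the far CTBP2 peaks of unmodified cells, against 83.2% and 90.6% of the others. EVI1 in the untreated replicates was called at 79.7% and 66.8% of the far EVI1 peaks, against 90.7% and 86.3%. With dox the CTBP2 shares were 55.2% and 64.9% of far CTBP2 peaks against 65.1% and 66.5%, and the EVI1 shares 76.5% and 78.3% of far EVI1 peaks against 89.4% and 88.9%. In 4xPLASS cells there was no such gap over all CTBP2 peaks, with 33.6% and 80.4% of far CTBP2 peaks against 30.97% and 78.9% of the others. Its sign depended on what was held equal. Within groups of fold enrichment the difference averaged -2.44 and -1.36 points and was negative in 5 and 4 of the 5 groups. Within GC groups it was 2.60 and 3.69 points. Both 4xPLASS libraries called 966 far CTBP2 peaks (32.1%, beside 30% of all) and 827 far EVI1 peaks (24.1%, beside 20% of all).

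Base composition moved with this gap. CTBP2 untreated replicate 1 called 28.4% of the far CTBP2 peaks in the lowest GC group, and 70.3%, 93.5%, 97.3% and 99.2% in the next 4. EVI1 untreated replicate 2 called 25.4%, 69.8%, 92.8%, 95.3% and 98.4% of the same peaks. The MOLM1 library went from 65.1% to 63.6% over the same groups and the second dox CTBP2 library from 59.7% to 51.9%, with 72.8% in the middle group, so that the slope belonged to some libraries and not to all. Taken within GC groups, the gap between far and other CTBP2 peaks went from -22.9 to -2.21 points in CTBP2 untreated replicate 1, from -7.94 to -1.74 in replicate 2, from -9.91 to 0.012 in dox replicate 1 and from -1.61 to -0.487 in dox replicate 2. For EVI1 at far EVI1 peaks it went from -10.96 and -19.4 to -2.16 and -1.59 untreated and from -12.9 and -10.5 to -1.29 and -1.51 with dox. The study's list of libraries names an Illumina HiSeq for the unmodified, 4xPLASS and MOLM1 libraries, but the instrument of each inducible library and the kit of each library are not given in the sources used here, so their part in the slope was not tested.

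To follow the effect of 4xPLDLS, the far CTBP2 peaks called in both untreated CTBP2 libraries were taken, 1758 of 3007 (58.5%, beside 76.2% of all CTBP2 peaks). Of these, CTBP2 was called again at 77.9% and 79.8% by dox replicates 1 and 2 (mean 78.9% ± 1.33, SD, n = 2 libraries), beside 76.6% and 74.8% of all such peaks and 75.2% ± 1.69 of the other peaks. Both dox libraries called 1253 (71.3%, beside 67% of all) and neither called 238 (13.5%, beside 15.5% of all). The far peaks differed from the others by 1.50 points (-0.596 to 3.60) in dox replicate 1 and 5.77 points (3.72 to 7.82) in replicate 2. Within groups of fold enrichment the differences averaged -1.92 and 1.94 points, so their sign differed between the replicates. From the lowest to the highest of the 5 GC groups CTBP2 was found again at 86.7%, 78.3%, 77.8%, 77.4% and 65.4% of far peaks (means of 2 libraries). The other peaks of the same groups gave 85.9%, 78.7%, 77.1%, 76.3% and 68.3%, so that far peaks were higher in 3 of 5. EVI1 was found again more completely. Of the 2213 far EVI1 peaks called in both untreated EVI1 libraries (64.6%, beside 81.1% of all), dox replicates 1 and 2 called 97.9% and 96.5% (97.2% ± 0.99, n = 2), beside 98.6% and 97.1% of all, both called 2115 (95.6%, beside 96.4%) and neither called 25 (1.13%, beside 0.713%). Of these results the first depended on 1 library, since without CTBP2 untreated replicate 1, which missed most GC-poor peaks, the CTBP2 share was 70.3% ± 6.80 of 2487 far peaks and 71.6% ± 0.796 of the other peaks, which turns the direction between them.

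The share of far CTBP2 peaks found again with dox varied with strength and with overlap of an EVI1 peak in unmodified cells. These traits went together, since the strongest far peaks had EVI1 most often, and they were not separated here. In order of strength the 5 groups had 93.2%, 78.9%, 74.5%, 64.5% and 66.0% (means of 2 libraries). Far CTBP2 peaks shared with EVI1 had 87.4% ± 0.87 (1215 peaks) and those not shared 59.7% ± 2.34 (543 peaks), while the other peaks of the list had 86.8% ± 1.12 and 56.5% ± 2.61. Not shared means only that the unmodified EVI1 list had no peak there. Both untreated EVI1 libraries of the inducible cells called 485 of the 1389 unshared far CTBP2 peaks. At far EVI1 peaks CTBP2 itself was in both untreated libraries at 2041 (59.6%, beside 75.8% of all EVI1 peaks). The dox libraries called it at 73.8% and 73.1% of them (73.5% ± 0.52), beside 72.6% and 67.5% of all. Neither dox library called CTBP2 at 360 of these (17.6%, beside 20.2%). EVI1 at far CTBP2 peaks was in both untreated libraries at 1704 (56.7%, beside 74.8% of all CTBP2 peaks), of which both dox libraries called 1601 (94.0%, beside 94.1%) and neither 28 (1.64%, beside 1.78%).

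The lists of the inducible cells themselves held 7582 and 8760 far CTBP2 peaks untreated and 3394 and 3983 with dox. The number was lower in both dox libraries than in both untreated ones, with means of 8171 ± 833 and 3688.5 ± 416 and a log2 ratio of -1.15. A two-sided exact permutation test gave p = 0.33, which is the smallest that 2 libraries against 2 allow. EVI1 far peaks numbered 7337 and 11049 untreated and 7828 and 7065 with dox (log2 ratio -0.30, exact p = 0.667). These groups overlapped, and without EVI1 untreated replicate 2 the log2 ratio was 0.021. Far peaks made up 14.3% ± 2.37 of the untreated and 15.8% ± 2.12 of the dox CTBP2 lists. No list gives the reads behind a peak, and fewer binding sites cannot be told apart from shallower sequencing by the number of peaks alone.

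Single far sites differed in how CTBP2 stood with dox. At KCNU1 the CTBP2 fold enrichment was 38.3 and 56.8 untreated and 48.0 and 47.8 with dox, so that the groups overlapped, and EVI1 was 71.9 and 59.5 untreated and 104 and 115 with dox. At ZMIZ1 CTBP2 was 74.5 and 57.4 untreated and 18.8 and 15.7 with dox, with no overlap between the groups, and EVI1 was 98.4 and 155 untreated and 81.3 and 65.4 with dox. At RPLP1 CTBP2 was 18.6 and 20.0 untreated and 7.77 and 8.76 with dox, while EVI1 was 32.9 and 44.2 and then 35.5 and 38.2. These are values within lists of unequal background and were not tested.

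Of the far CTBP2 peaks called in both untreated and neither dox CTBP2 library, the 4 strongest in unmodified cells were at CNR1 (15.9), KLF6 (15.1), RHOU (12.01) and SEC13 (10.7). KLF6 encodes a zinc finger transcription factor, and its site (chr10:4102013-4102346) lay 275 kb upstream. There CTBP2 had 7.38 and 5.42 in the untreated libraries, and EVI1 had 13.8 and 13.7 untreated and 20.1 and 21.4 with dox. RHOU encodes an atypical small GTPase, and at its site (chr1:229126704-229127275), 256 kb downstream of the TSS, CTBP2 had 19.5 and 15.9 untreated and EVI1 had 13.7 and 29.4 untreated and 17.5 and 13.7 with dox. At the SEC13 site, in an intron of the calcium pump gene ATP2B2 (chr3:10501933-10502175), CTBP2 had 17.5 and 15.9 and EVI1 went from 9.81 and 8.02 to 2.90 and 2.95. The CNR1 site (chr6:89258790-89259270), 383 kb upstream of the cannabinoid receptor gene, had no peak of either protein with dox, no EVI1 peak in unmodified cells and none in MOLM1. EVI1 was thus still called with dox at 3 of these 4 sites. The strongest far EVI1 peaks that both dox EVI1 libraries missed were weaker, with fold enrichments of 8.69 in UBR3, 7.997 in TBC1D1 (nearest TSS PTTG2), 7.26 in the immunoglobulin heavy chain region (nearest TSS TMEM121) and 6.88 in AKAP13.

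MOLM1 had a CTBP2 peak at fewer of the far sites of MUTZ3 than of the sites nearer to TSSs. A CTBP2 peak of MOLM1 overlapped 1995 far CTBP2 peaks (66.3%, 64.6 to 68.0), beside 70.4% of all CTBP2 peaks and 71.3% of the others, a difference of -4.95 points (-6.80 to -3.09). It was negative in all 5 groups of strength and all 5 groups of GC. For far EVI1 peaks the share was 65.2%, beside 71.1% of all EVI1 peaks and 72.3% of the others. The share went down with distance, from 68.8% of far CTBP2 peaks at 100 to 200 kb to 65.8%, 56.9% and 52.2% in the farther classes, while the 3 classes within 100 kb had 71.7%, 72.0% and 70.8%. The MOLM1 list is long, with 63703 peaks on these chromosomes. When the MOLM1 list was cut to its 16526 peaks of highest fold enrichment, the size of the MUTZ3 list, the far CTBP2 share was 40.6%. The difference was then 2.52 points, so the sign of the comparison rests on the weaker MOLM1 peaks.

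Far CTBP2 peaks with an EVI1 peak in unmodified MUTZ3 were in MOLM1 in 79.2% of cases and those without one in 51.4%. Among the strongest far CTBP2 peaks not called in MOLM1 were sites near MAB21L1 (22.8), SERPINB8 (20.9) and LRATD1 (19.1), and all 3 also had an EVI1 peak in unmodified MUTZ3 (13.2, 22.6 and 23.8). By chromosome, the far share was below that of the other peaks on 19 of 22. It was higher on chromosome 21 (81.4% of 59 peaks against 65.8%), chromosome 17 (72.4% of 76 against 68.8%) and chromosome 3 (73.4% of 218 against 72.8%). The lowest shares among chromosomes with over 100 far CTBP2 peaks were 54.1% on chromosome 18 and 55.4% on chromosome 16. MUTZ3 and MOLM1 differ in more than their chromatin, and copy number was not tested.

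Far sites were spread over many genes, with a few large clusters. The 4777 sites had 1670 genes as nearest coding TSS, 729 of them with 1 site and 65 with 10 or more, and the 12 genes with the most held 265 sites (5.55%). TMEM121, a membrane protein gene at the end of chromosome 14, had 53, and 50 of them lay in the adjoining immunoglobulin heavy chain region (chr14:106316051-107253644), whose gene segments the annotation does not class as protein-coding. ID2, an inhibitor of helix-loop-helix factors in lymphoid and myeloid cells, had 25 sites over 709 kb, 12 of them in both lists. UACA had 22 over 181 kb, and the oncogene MYC 21 over 1091 kb. LRMDA and CLIC6 had 20 each. All 20 of LRMDA lay in its own introns, and all 20 of CLIC6 lay inside RUNX1, the core transcription factor of blood stem cells, for which the annotation uses the start of a very long isoform. TNP1 had 18, GSE1, a component of histone demethylase and deacetylase complexes, had 18 inside its own body, and GSDMC, LZTS1, MAP3K7 and LY86 had 17 each. Per Mb of sequence over 100 kb from any TSS and nearest to the gene, GSE1 (112), UACA (94.5) and LY86 (88.0) were the densest of these, against 3.86 over all.

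The clusters differed in where they were called. Over all far EVI1 peaks MOLM1 called 65.2%, and the CTBP2 libraries of the inducible cells called 62.8% and 79.7% untreated and 52.8% and 57.7% with dox. Over all far CTBP2 peaks the same libraries called 66.3%, 60.3% and 82.7%, and 55.2% and 64.9%. At ID2, MOLM1 called CTBP2 at 19 of 20 far EVI1 and 14 of 17 far CTBP2 peaks, while at LZTS1, a tumor suppressor gene on chromosome 8, it called 2 of 16 and 2 of 12, and at MAP3K7, which encodes the kinase TAK1, 1 of 8 and 3 of 16. Those last clusters were present in the inducible MUTZ3 cells, where EVI1 was called at 15 and 12 of the 16 LZTS1 EVI1 peaks untreated and 14 and 13 with dox. TMEM121, in the immunoglobulin region, had MOLM1 calls at 15 of 43 EVI1 and 15 of 23 CTBP2 peaks. At the RUNX1 sites nearest to CLIC6, MOLM1 called 8 of 11 EVI1 and 14 of 16 CTBP2 peaks, and CTBP2 in the inducible cells was called at 13 and 15 of the 16 untreated and 8 and 8 with dox, with EVI1 at 15 and 14 and then 15 and 15. At GSE1, CTBP2 was called at 17 and 15 of 17 EVI1 peaks untreated and 8 and 6 with dox, while EVI1 went from 17 and 17 to 16 and 14. At TMEM121 it was at 38 and 34 of 43 EVI1 peaks untreated and 22 and 19 with dox, with EVI1 at 40 and 40 and then 37 and 35. At MYC the CTBP2 calls were at 10 and 12 of 13 CTBP2 peaks untreated and 8 and 8 with dox. At other clusters the untreated and dox counts overlapped. CTBP2 was called at 8 and 9 of 13 CTBP2 peaks untreated and 9 and 9 with dox at GSDMC, at 5 and 8 of 8 EVI1 peaks and then 7 and 8 at MAP3K7, and at 7 and 12 of 16 EVI1 peaks and then 9 and 11 at LRMDA. The lower untreated count was each time that of replicate 1, which missed most GC-poor peaks. Against untreated replicate 2 alone, CTBP2 calls at the EVI1 peaks went from 8 to 7 and 8 at MAP3K7 and from 12 to 9 and 11 at LRMDA. At the CTBP2 peaks they went from 11 to 9 and 8 at MAP3K7 and from 11 to 8 and 9 at LRMDA. At GSDMC they stayed at 9. Neighbouring peaks of a cluster are not replicates, so these counts are descriptions.

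Of the 4777 sites, 2098 (43.9%) lay inside 760 coding genes, and the gene that held the site was the one with the nearest TSS in 1284 of these (61.2%). The genes that held most were GSE1 with 33, RUNX1 with 27, CACNA1C, a calcium channel gene, with 25, LRMDA with 21, TBC1D5 and ZFHX3 with 17 each and PDE4D and CELF2 with 16 each. Since these genes have several starts, some of the sites were near one of them. Of the 27 in RUNX1, 7 were over 100 kb from every start of a coding transcript, of the 33 in GSE1 20, and of the 15 in SEPTIN9 none.

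Blood regulators had more far sites than their share of sequence. Over all 19229 coding genes, 8.68% had a far site, or 33.7% of the 4962 genes with any sequence over 100 kb away, and there were 3.86 sites per Mb. Of 103 blood transcription factors, 40 had one, or 60.6% of the 66 with such sequence, with 211 sites at 8.26 per Mb. After ID2 and MYC the most were at MEF2C (12), BCL11A (11), ETS1 (11), ERG, PRDM1 and TOX (9 each) and KLF6 (8), factors of myeloid, lymphoid and stem cells. All 4 sites at MAF and all 3 at IKZF2 were in both lists. MECOM, the gene of EVI1, had 3 within 3.13 kb, all inside its own body, of which 1 was in both lists. The study describes a longer isoform of this locus, MDS1-EVI1, that is hardly expressed in such leukemia. The gene-level start used here need not be that of EVI1, and the distance to the EVI1 start was not measured. All 3 EVI1 peaks were called in the 4 inducible EVI1 libraries and overlapped a CTBP2 peak of MOLM1. CTBP2 was called at 3 and 3 of them untreated and 2 and 1 with dox. Growth factor receptors and signalling genes of blood cells had 77 sites at 17 of 56 genes (10.1 per Mb). Among them were PRKCB (11), DUSP6 and SPRY1 (9 each), CSF3R (8, none in both lists), PIK3R1 (8) and KIT (2). In the inducible cells CTBP2 was called at 5 and 5 of the 6 CSF3R EVI1 peaks untreated and 2 and 2 with dox. Surface and adhesion genes had 19 at 8 of 50 (7.81 per Mb).

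Genes of the repressor complexes to which CTBP2 belongs or is related had 43 sites at 8 of 44 genes (8.15 per Mb). Among them TBL1XR1, a subunit of histone deacetylase complexes, had 12, of which 8 were in both lists. The TGF-beta and BMP pathway, whose SMAD3 arm EVI1 is known to repress, had 39 sites at 10 of 41 genes (5.02 per Mb), with TGIF1 at 8, SMAD7 and SMAD3 at 7 and INHBA at 5. At SMAD7, the inhibitory SMAD, 5 of 7 sites were in both lists and all 7 EVI1 peaks had CTBP2 in both untreated libraries and 6 in each dox library. None of the 7 at SMAD3 was in both lists of unmodified cells. In the inducible cells, however, CTBP2 was called at 2 and 2 of the 3 SMAD3 EVI1 peaks untreated and 1 and 1 with dox. EVI1 was called there at 3 and 3 of the 4 SMAD3 CTBP2 peaks untreated and 2 and 3 with dox. Neuronal adhesion and synapse genes lie in the long gene-poor stretches of the genome. They had 127 sites at 43 of 78 genes (55.1%, all with sequence over 100 kb away) but 118 Mb of such sequence, or 1.08 per Mb. GRM7 (10) and CDH2, CNTNAP5, NCAM2 and NRXN3 (8 each) were highest. Among genes with such sequence, the share with a site was above the 33.7% of all coding genes in every list. It ran from 41.7% (TGF-beta and BMP) to 66.7% (surface and adhesion). Peak density also fell with distance from a TSS, and distance was not held equal between the lists. The lists were chosen with earlier results known and none of these densities was tested.

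Across all lists the far peaks ran from constant to unique. Of the far CTBP2 peaks, 461 (15.3%) were in all 12 other lists, against 17.3% of the other CTBP2 peaks, and 123 (4.09%) were in none, against 1.92%. Of the far EVI1 peaks, 461 (13.5%) were in all and 197 (5.75%) in none, against 13.3% and 2.62% of the others. Far CTBP2 peaks with EVI1 in unmodified cells, with both proteins in all 8 inducible libraries and with CTBP2 in MOLM1 numbered 789 (26.2%). The 3 farthest peaks of each list were mixed in strength. The EVI1 peak at 2204 kb from RAG2, the farthest of all, had a fold enrichment of 5.81 and was in no other list, and the farthest CTBP2 peak, also nearest to RAG2 at 1999 kb, had 4.72 and was in 1. The next CTBP2 peak, 1972 kb from UQCRFS1 with a fold enrichment of 1.76, lay 0.365 kb from an assembly gap. By contrast, 2 adjoining EVI1 peaks 2114 and 2113 kb from PIK3C3 (7.45 and 7.04) were at the start of the long non-coding gene LINC01902 and had EVI1 in all 4 inducible EVI1 libraries (12.95 and 25.7 untreated, 5.75 and 4.89 with dox), while CTBP2 was called there in the untreated libraries only (12.2 and 7.39). A CTBP2 peak 1968 kb from CDH9 had 6.24 in MUTZ3 and 24.0 in MOLM1.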

How the data were processed

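ChIP-seq peak lists of 13 of 31 samples were used, 1 per library. The authors aligned reads to hg19 with Bowtie 1.1.1 and called the peaks of every library with MACS2 2.1.2 (versions from the submitters' processing notes) at default settings against an input of the same protocol. The fold enrichment, as deposited, is a ratio of summit signal to the background nearby. The −log10 p and −log10 q, also deposited by the authors, give the p-value and q-value that MACS2 assigned to the summit. They served to rank or filter peaks within a list. Reads were not used, so depth is unknown.

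The members and gene lists were chosen with earlier results of these data known. Distances were measured from the summit (column 2 plus column 10) to the gene-level TSS of 19229 protein-coding genes on chromosomes 1 to 22 in GENCODE release 44 lifted to hg19. Peaks overlapping by at least 1 bp were counted as shared, and a peak called in both untreated libraries was kept if a dox library called it. Merged sites join overlapping far peaks of both lists. Shares have 95% Wilson intervals, and peak numbers were compared in an exact permutation test. P-values measure the spread between libraries, which the labels do not state to be separate cultures. Motif words were counted on both strands of the summit with 50 bp on each side, and GC in 1001 bp windows. Named sites were the 8 strongest far peaks of each list, the 8 best ranked shared sites, the 4 strongest CTBP2 and EVI1 peaks called in both untreated and neither dox library or in all 4, the 3 strongest CTBP2 peaks with and without MOLM1, the 3 farthest, and 1 peak on each side of 100 kb. Some named items are not reported here. Named genes were the 12 with the most sites and members of the lists. The inputs and the sequence repeats were not analysed here. Distances and overlaps were tested on 4000 simulated peaks, and bedtools 2.31.1 gave the same 9099 overlaps as Python 3.11.15 with numpy 2.4.6 and pandas 2.3.3. Alternatives were other limits, TSS sets, thresholds, overlap rules, list sizes and libraries left out. The transcript starts, receptor segments, GC and strength groups, the crossed numbers and the comparison of far with other peaks in MOLM1 were added after seeing the data.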

Additional observations from a re-analysis of the deposited data

How the results depend on the processing

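Of 142 alternative values, 86 kept the direction of the main value and stayed within its counting or replicate spread, 49 moved and 7 turned direction. Except where another value or the way an alternative is built shows the cause, the cause was not tested. The rule itself set the size of the far set. With far as over 50 kb it was 28.9% of EVI1 and 31.8% of CTBP2 peaks, over 200 kb 7.38% and 8.42%, with starts of all coding transcripts 11.3% and 12.4%, with long non-coding TSSs added 5.24% and 6.27%, at a fold enrichment of at least 5 17.9% and 20.7%, and at a −log10 q of at least 5 16.8% and 19.6%. Sharing of far EVI1 peaks was 41.8% at a fold enrichment of at least 5, 45.0% at a −log10 q of at least 5, 46.0% with 50% overlap, 45.3% with summits within 200 bp and 51.04% with lists of equal size, and its excess over the other peaks was 7.73 and 7.65 points under both thresholds and 2.74 within groups of fold enrichment. Sharing of far CTBP2 peaks was 51.7% with long non-coding TSSs, 56.8% at a −log10 q of at least 5, 51.7% with 50% overlap, 51.5% with summits within 200 bp and 48.7% with lists of equal size. Its difference from the other peaks turned positive at a fold enrichment of at least 5 (1.13), with 50% overlap (0.211), with summits within 200 bp (0.367), with lists of equal size (1.70) and within GC groups (2.49), and was -3.18 with long non-coding TSSs and -4.26 within groups of fold enrichment. The MOLM1 share of far CTBP2 peaks was 63.6% beyond 200 kb, where the difference from the others was -7.47 points, 68.4% at a −log10 q of at least 5, 63.7% with 50% overlap, 63.0% with summits within 200 bp and 40.6% with lists of equal size, where the difference turned to 2.52 points.

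CTBP2 kept with dox at far CTBP2 peaks was 71.9% at a fold enrichment of at least 5, 80.3% with starts of all coding transcripts, 87.1% with its 4 lists at equal size, 69.3% for peaks called in either untreated library, 86.7% in the lowest GC group alone and 76.9% without that group. Leaving out 1 library gave 70.3% to 79.8%, the lowest without untreated replicate 1. EVI1 kept at far EVI1 peaks was 94.6% at a fold enrichment of at least 5, 95.8% with summits within 200 bp and 91.2% for peaks called in either untreated library, and 92.3% to 97.9% with 1 library left out, the lowest without untreated replicate 2. The log2 ratio of the number of far peaks with 1 library left out ran from -1.27 to -1.04 for CTBP2 and from -0.57 to 0.021 for EVI1, turning direction without untreated replicate 2. Comparing libraries by replicate number, as a replicate block, gave 75.6% ± 0.635 for CTBP2 and 93.2% ± 2.19 for EVI1, and log2 ratios of -1.15 and -0.28. The numbers are not stated to pair the libraries. Deviations of same-numbered libraries correlated at 0.24 for CTBP2 and -0.43 for EVI1, and crossed numbers, added after seeing the data, gave 94.8% for EVI1 and a log2 ratio of -0.28. Depth cannot be read from the lists.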

Other observations

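Far sites lay in several antigen receptor regions. Within 10 kb of an immunoglobulin or T cell receptor segment there were 74 merged sites (1.55% of 4777), 50 of them in the heavy chain locus and 24 elsewhere. They held 58 far EVI1 peaks and 35 far CTBP2 peaks, whose median fold enrichments were 6.46 and 5.46 beside 6.22 and 5.68 over all far peaks. EVI1 was called at 53 and 52 of the 58 EVI1 peaks in the untreated and 51 and 48 in the dox libraries, CTBP2 at 51 and 46 untreated and 32 and 28 with dox, and MOLM1 had CTBP2 at 27. Over all far EVI1 peaks the shares called were 79.7% and 66.8%, then 76.5% and 78.3% for EVI1, 62.8% and 79.7%, then 52.8% and 57.7% for CTBP2, and 65.2% in MOLM1. These counts were not tested.

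Several long genes held many far sites although the nearest TSS was mostly that of another gene. CACNA1C, a calcium channel gene, held 25, of which 13 were in both lists and 15 had FKBP4 as nearest, and RAD51B, a DNA repair gene, held 15, of which 14 had ZFP36L1, which encodes an RNA-binding protein of blood cells, as nearest. Far peaks made up between 12.7% (CTBP2 untreated replicate 1) and 20.4% (MOLM1) of the 13 lists.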
